A study of Mus musculus with 12 samples.

Results

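Interferon-stimulated genes are the genes that a cell switches on when an interferon binds its receptor. The 39 described here were listed by name, as genes whose products belong to the type I interferon response, and then looked up in the expression table. The list was chosen with earlier results of these data known. Shares over all genes given beside its counts below therefore describe the list and do not test it. All 39 were found among the 35275 genes of the table. Levels are in FPKM, the fragments per kilobase of transcript scaled to a common sequencing depth. Tests covered 13115 genes, those averaging 0.5 FPKM or more over the mice, and 38 of the 39 were among them. The remaining one, Oas1g, was listed between 0 and 0.330 FPKM and was not tested. The products fall into 7 roles, which are cytosolic nucleic-acid sensors (5 genes), transcription factors together with the inhibitor USP18 (4), 2'-5'-oligoadenylate synthetases and relatives (OAS, 6), IFIT proteins (5), other antiviral effectors (8), ubiquitin-like and ADP-ribosyl modifiers (6) and others (5).

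Type I interferons signal through the receptor chains IFNAR1 and IFNAR2 and the kinases JAK1 and TYK2. These phosphorylate STAT proteins, and STAT2 takes part with IRF9 in ISGF3, the complex that binds the interferon-stimulated response element (ISRE) in promoters. A raised level of such transcripts in blood cells, the interferon signature, is a well-known feature of systemic lupus erythematosus. IFN-γ, which T cells make, acts through another receptor, and it shares many targets with the type I interferons.

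RNA was sequenced from purified CD4+ T cells of C57BL/6 (B6) mice and of B6.Sle1.Sle2.Sle3 (SLE123) mice, a lupus-prone congenic strain that carries 3 susceptibility loci on the B6 background. Both strains were studied untreated and after MB23G2, an antibody to the CD45RB form of the surface phosphatase CD45 that induces transplant tolerance in B6 mice, at 100 µg given by intraperitoneal injection 5 times from day 0 to day 7. Each of the 4 groups held 3 female mice of 9 to 12 weeks, and no group received a control antibody. The cells were enriched by negative magnetic selection. The study's methods then describe a split into CD25+ and CD25- cells, but the labels name no fraction, so whether a library holds all CD4+ T cells or 1 of these fractions is not known here. Since a congenic strain also carries donor DNA around each locus, the effect of the loci and of passenger genes cannot be told apart.

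The libraries held between 13562933 and 23641603 fragments, as worked back from the FPKM values, and 3 fragments on a transcript of 2000 bases came to between 0.0634 and 0.111 FPKM. The CD4+ T cell label held, with Cd4 between 237 and 327 FPKM and Cd3e between 274 and 401 FPKM in the 12 mice. Other cells were also present. Immunoglobulin genes took 20.2% to 39.8% of all FPKM in untreated SLE123 mice, 11.3% to 21.9% in treated SLE123 mice and 0.329% to 1.46% in B6 mice. FPKM values are scaled to all fragments of a library, so immunoglobulin fragments lower every other gene of the SLE123 libraries, though not by these percentages. Without them, the mean log2(FPKM + 1) of the listed genes in untreated SLE123 mice went from 4.36, 4.10 and 4.17 to 4.43, 4.19 and 4.34. Results that turn with the scaling are given beside it. Liver transcripts summed to between 40.2 and 47.2 FPKM in the 6 B6 libraries and 44.9 in treated SLE123 mouse 1, and to at most 0.368 FPKM in the other SLE123 libraries.

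Promoters are shown first, because the ISRE is what the listed genes would be predicted to share and the list was not chosen by it. RefSeq promoter windows (GRCm38.p6, 250 bases before to 50 bases after each start) were found for 29 of the 39 genes. The ISRE core, searched as the letters GAAA, 2 bases of any kind and GAAA again, on either strand and with overlapping copies counted, occurred in windows of 16 of these 29 genes (55.2%), against 1079 of 27025 genes in the whole table of promoters (3.99%). On the strand of transcription alone the shares were 24.1% and 2.06%. The 16 genes were Bst2, Ddx58, Eif2ak2, Gbp2, Ifih1, Ifit1, Ifit1bl1, Ifit3, Ifit3b, Isg15, Oas1a, Oas1g, Oas3, Rsad2, Stat2 and Trim30a. Windows of Cmpk2, Dtx3l, Herc6, Ifi35, Ifi44, Ifit2, Irf7, Irf9, Isg20, Oasl1, Oasl2, Samd9l and Xaf1 did not hold these letters. The other 10 genes, Dhx58, Mx1, Mx2, Parp9, Parp14, Rtp4, Ifi27l2a, Zbp1, Usp18 and Oas2, were not looked up further.

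The 250 bases upstream of 6 of these genes follow, 5′ to 3′ on the transcribed strand, with the matches in capitals. Isg15 was chosen for its overlapping copies, Bst2 for the high level of its transcript, and the pairs Ifit3 and Ifit3b, and Oas1a and Oas1g, because each pair is a set of near-identical neighbours whose levels are compared later.
Isg15: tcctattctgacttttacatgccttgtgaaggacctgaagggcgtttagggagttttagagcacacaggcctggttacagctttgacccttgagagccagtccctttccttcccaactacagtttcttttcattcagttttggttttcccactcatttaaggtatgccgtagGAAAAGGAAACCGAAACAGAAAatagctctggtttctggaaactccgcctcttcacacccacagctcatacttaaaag
Bst2: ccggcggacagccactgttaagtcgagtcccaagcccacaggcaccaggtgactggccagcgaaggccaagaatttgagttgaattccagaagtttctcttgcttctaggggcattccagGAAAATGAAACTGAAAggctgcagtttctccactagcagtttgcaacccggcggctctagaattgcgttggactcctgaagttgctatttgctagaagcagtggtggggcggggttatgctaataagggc
Ifit3: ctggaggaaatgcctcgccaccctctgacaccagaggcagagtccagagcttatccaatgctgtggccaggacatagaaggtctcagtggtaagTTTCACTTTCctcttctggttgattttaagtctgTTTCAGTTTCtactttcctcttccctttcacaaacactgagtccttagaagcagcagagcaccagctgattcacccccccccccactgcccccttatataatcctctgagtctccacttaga
Ifit3b: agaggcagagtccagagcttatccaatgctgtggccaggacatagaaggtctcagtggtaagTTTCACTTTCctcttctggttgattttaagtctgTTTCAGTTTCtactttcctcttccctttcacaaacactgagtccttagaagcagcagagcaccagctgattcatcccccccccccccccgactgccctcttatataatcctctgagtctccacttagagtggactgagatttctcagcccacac
Oas1a: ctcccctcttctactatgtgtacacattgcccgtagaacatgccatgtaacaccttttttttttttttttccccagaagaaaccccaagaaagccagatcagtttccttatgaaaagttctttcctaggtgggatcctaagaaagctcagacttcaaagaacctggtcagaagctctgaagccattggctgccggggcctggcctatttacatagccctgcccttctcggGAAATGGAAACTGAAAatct
Oas1g: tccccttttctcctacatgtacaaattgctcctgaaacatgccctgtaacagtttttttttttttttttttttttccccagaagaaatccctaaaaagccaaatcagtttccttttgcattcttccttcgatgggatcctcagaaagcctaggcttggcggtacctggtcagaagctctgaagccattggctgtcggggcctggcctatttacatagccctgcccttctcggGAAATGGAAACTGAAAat

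These stretches lie at chr4:156200819-156201068 for Isg15 (minus strand), chr8:71537473-71537722 for Bst2 (minus strand), chr19:34583279-34583528 for Ifit3 and chr19:34607707-34607956 for Ifit3b (both plus strand), and chr5:120907526-120907775 for Oas1a and chr5:120887614-120887863 for Oas1g (both minus strand). In Isg15 the run of 3 overlapping matches began 78 bases before the start. In Ifit3 and Ifit3b the core lay on the opposite strand, so that both matches read TTTC, 2 bases and TTTC as printed, and they began 156 and 122 bases before the start in the former and 188 and 154 bases in the latter. The Oas1a and Oas1g matches lay close to the start, beginning 20 and 18 bases before it. A match is a description of the letters and not evidence that a factor bound there.

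The genes are also clustered on the chromosomes, by the GENCODE M21 annotation of the same build. The 5 IFIT genes lie within 99.3 kb of chromosome 19 (chr19:34550694-34650009), Oas1a, Oas1g, Oas2 and Oas3 within 177.2 kb of chromosome 5 (chr5:120730333-120907521), and Parp9, Dtx3l and Parp14 within 139.7 kb of chromosome 16 (chr16:35832874-35972605). Some neighbours share sequence, so their reads can be split either way by the counting. Of the 50-base stretches in Oas1a transcripts, 57.6% also occurred in Oas1g transcripts, and 51.2% of those in Ifit3 transcripts occurred in Ifit3b transcripts. The values of these 4 genes are uncertain in that sense. For every other listed gene, the gene sharing most with it held 12% of its stretches or less.

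All but 1 of the 39 genes were measured above 1 FPKM on average, and 31 averaged 10 FPKM or more. The most abundant was Ifi27l2a, a member of the interferon-alpha-inducible protein 27 family, at a mean of 271 FPKM over the 12 mice. Bst2, which encodes tetherin, a protein that holds budding virus at the cell surface, followed at 96.5 FPKM and Samd9l, an antiviral and growth-restraining factor, at 56.0 FPKM. At the low end stood Ifi44 at 1.66 FPKM and Oas1g at 0.156 FPKM. Untreated B6 T cells thus already held transcripts of most of the list, for example Irf7 at 38.1, 36.7 and 36.1 FPKM in the 3 mice and Zbp1 at 38.6, 35.7 and 38.0 FPKM.

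The mean log2(FPKM + 1) over the 39 genes gives 1 level per mouse. It was 3.96, 3.87 and 3.99 in untreated B6 mice, 4.30, 4.29 and 4.11 in treated B6 mice, 4.36, 4.10 and 4.17 in untreated SLE123 mice, and 4.81, 4.64 and 4.60 in treated SLE123 mice. The 3 untreated B6 mice were lowest and the 3 treated SLE123 mice highest, and treated B6 and untreated SLE123 mice overlapped in between. Treated minus untreated came to 0.30 in B6 and 0.47 in SLE123. SLE123 minus B6 came to 0.27 without treatment and 0.45 with it. With TPM in place of FPKM, the untreated strain difference turned to -0.06, and after removal of the immunoglobulin genes from the total it was 0.38. In bulk RNA, more cells that express a gene and more RNA per cell cannot be told apart.

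**Figure D1:**
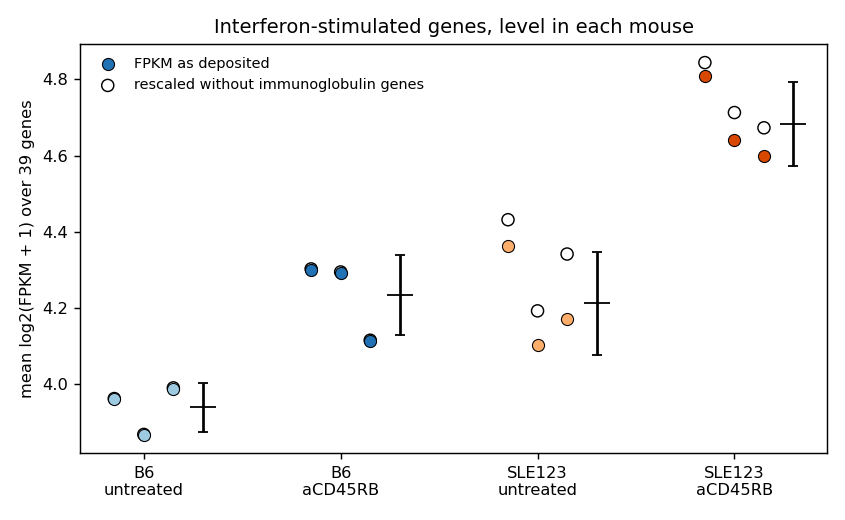
Mean log2(FPKM + 1) over the 39 interferon-stimulated genes in each of the 12 mice, by group, with filled points for FPKM as deposited and open points after rescaling without immunoglobulin genes; bars give the mean and SD of 3 filled points. The untreated B6 mice lie lowest (3.87 to 3.99) and the treated SLE123 mice highest (4.60 to 4.81).

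Anti-CD45RB was first compared with no treatment in B6 mice, the strain in which the antibody induces tolerance. Of the 38 genes tested, 14 rose and none fell, against 8.74% of all 13115 genes that rose and 6.12% that fell (limma, adjusted p under 0.05). The median log2 difference was 0.27 over the 38 genes and 0.00 over all genes, and 35 of the 38 differences were above 0, as were 49.3% over all genes. In 24 genes all 3 treated mice lay above all 3 untreated mice, and in 1 gene they lay below, where 19.4% and 18.6% of all genes did so.

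Usp18, which removes ISG15 from proteins and blocks the type I interferon receptor, was measured at 16.5, 15.1 and 16.3 FPKM in untreated and 28.2, 28.7 and 22.4 FPKM in treated B6 mice. The groups did not overlap, and the difference was 0.68 ± 0.095 on the log2(FPKM + 1) scale (SE, adjusted p = 0.00702, limma), a ratio of mean FPKM of 1.65. Irf7, the transcription factor that amplifies interferon production, rose less, from 38.1, 36.7 and 36.1 FPKM to 49.0, 49.1 and 43.7 FPKM (0.35 ± 0.053, adjusted p = 0.00937, limma). The ISGF3 subunits Stat2 (0.21, adjusted p = 0.0544) and Irf9 (0.15, adjusted p = 0.0792) did not pass, although neither overlapped between groups.

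The OAS proteins sense double-stranded RNA and activate RNase L. Oas3 rose from 9.86, 9.43 and 10.9 FPKM to 16.2, 16.5 and 14.7 FPKM (0.60 ± 0.069, adjusted p = 0.00360, limma). Oas2 rose from 12.3, 10.7 and 13.0 FPKM to 18.5, 16.6 and 15.5 FPKM (0.46 ± 0.088, adjusted p = 0.0190, limma). Oasl1, which lacks synthetase activity and restrains Irf7 translation, rose from 4.83, 4.31 and 5.50 FPKM to 7.57, 8.85 and 7.09 FPKM (0.59 ± 0.11, adjusted p = 0.0161, limma). In all 3 genes every treated mouse exceeded every untreated mouse. Oas1a (0.49) and Oasl2 (0.36) did not pass, with adjusted p of 0.0719 and 0.169.

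Among the IFIT genes, whose products bind viral RNA ends and block translation, Ifit1 rose from 13.3, 12.4 and 12.4 FPKM to 18.2, 19.3 and 15.5 FPKM (0.44 ± 0.081, adjusted p = 0.0170, limma). Ifit3b (0.44) and Ifit1bl1 (0.33) also rose. Ifit3 did not pass, since treated mouse 5, at 14.8 FPKM, lay within the untreated range. Ifit2 was flat in value, at 26.8 to 29.4 FPKM untreated and 26.3 to 28.5 FPKM treated.

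Of the effectors, Bst2 rose from 51.9, 43.9 and 52.8 FPKM to 71.8, 82.4 and 61.2 FPKM (0.52 ± 0.12, adjusted p = 0.0287, limma). Cmpk2, a mitochondrial nucleotide kinase encoded beside Rsad2, rose from 6.82, 7.05 and 7.40 FPKM to 12.1, 11.5 and 9.98 FPKM (0.59 ± 0.077, adjusted p = 0.00589, limma). Both groups stood apart in each gene. Rsad2, the gene of viperin, had a difference of 0.66 but a wider spread, at 5.23, 5.25 and 3.07 FPKM in treated mice, and its adjusted p was 0.0533.

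Ifi27l2a had the smallest p of the list in B6, at 169.6, 174 and 165 FPKM untreated and 252, 280.1 and 254 FPKM treated (0.62 ± 0.047, adjusted p = 0.000794, limma). Rtp4, a negative regulator of the antiviral response, also rose (0.39), as did the sensor Dhx58 (LGP2, 0.24) and the ADP-ribosyltransferase Parp14 (0.23). The RNA sensors Ddx58 (RIG-I) and Ifih1 (MDA5) did not pass, with differences of -0.01 and 0.03. Herc6, the mouse ISG15 ligase, was the gene in which all treated mice lay below the untreated mice, at 11.4 to 13.0 against 13.3 to 14.3 FPKM, and it did not pass (-0.17, adjusted p = 0.107).

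**Figure D2:**
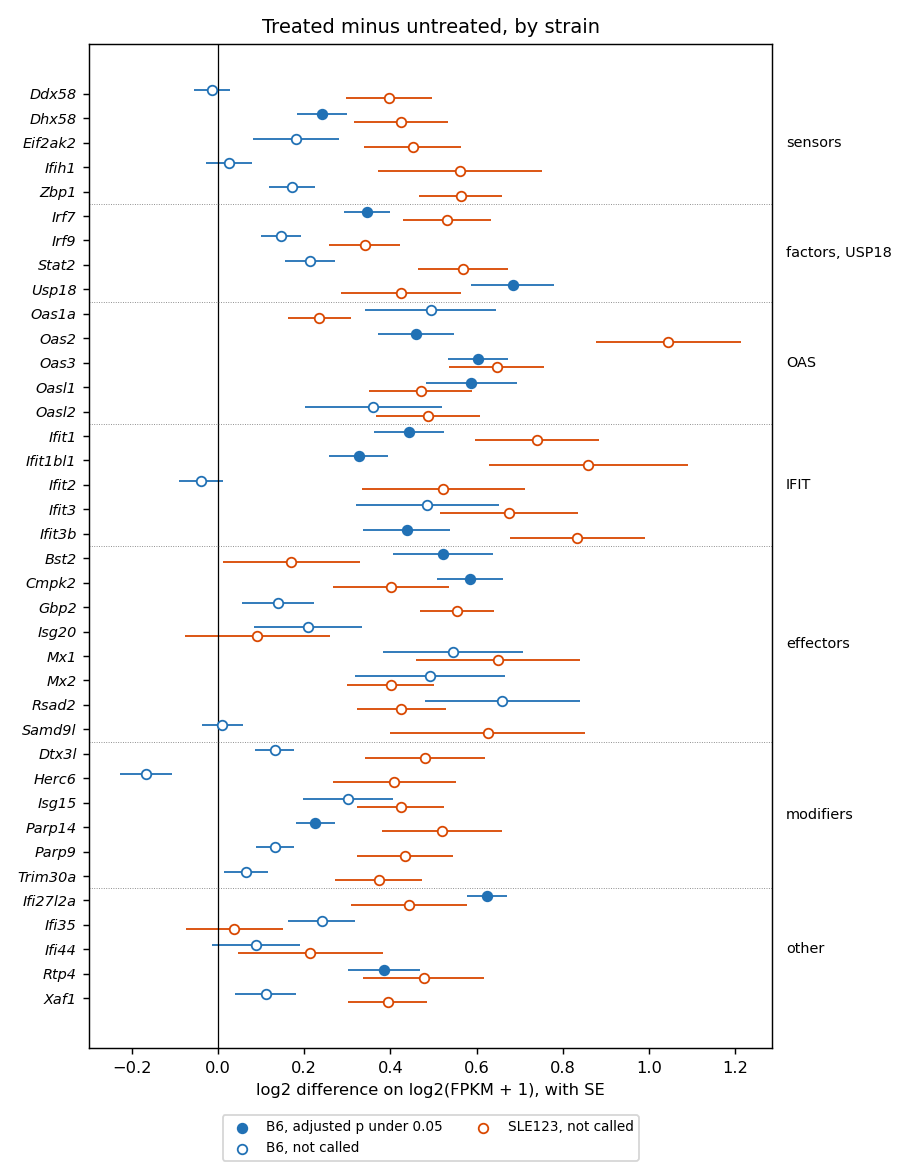
Treated minus untreated in B6 (blue) and SLE123 (orange) mice for the 38 tested genes, grouped by role, on the log2(FPKM + 1) scale with SE from limma; filled points passed the adjusted threshold of 0.05. The 14 filled points are all B6 and all above 0, and the 38 SLE123 points are open and above 0.

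The B6 count depended on single mice. It was 7, 5, 9 and 7 without untreated mouse 3, untreated mouse 4, treated mouse 1 and treated mouse 3, respectively, and every gene called in those fits was among the 14. Usp18, Ifi27l2a, Oas3, Cmpk2 and Irf7 passed without any 1 of the 6 mice. With genes of any level kept in the test 5 rose (3.25% of all genes), with all 12 mice in 1 fit 8 rose (4.25%), and by voom on the recovered fragments 22 rose (11.8%) and Herc6 fell (8.95%).

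Markers of other cells moved with treatment in B6. All 5 tested B cell markers and all 5 tested monocyte, macrophage and neutrophil markers rose, and 4 of 9 CD4+ T cell markers fell. The summed level of the 6 B cell markers was 3.86 to 5.08 FPKM untreated and 23.8 to 31.3 FPKM treated, that of the 7 myeloid markers 4.39 to 9.23 and 48.7 to 113.6 FPKM, and that of the 6 CD8+ T and NK cell markers 54.5 to 59.8 and 83.1 to 99.9 FPKM. The 6 conventional dendritic cell markers summed to 1.12 to 1.71 and 6.68 to 7.35 FPKM (3 of 4 tested rose), and the 7 erythroid and platelet markers to 1.93 to 2.77 and 15.6 to 17.9 FPKM (4 of 6 tested rose). The 6 plasmacytoid dendritic cell markers in the table, which include the listed gene Bst2, summed to 71.3 to 80.2 and 85.5 to 112.1 FPKM. Of the 4 tested, Tcf4 (0.64) and Bst2 (0.52) rose, Pacsin1 (-0.37) fell and Ccr9 (0.28) did not pass. Siglech, the most specific marker of the 6, was not tested. It was at 0.0539, 0.0480 and 0.189 FPKM untreated and 1.25, 2.26 and 0.284 FPKM treated. No marker in these lists was at 0 in every mouse of either group. Their part in the B6 differences was not tested.

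In SLE123 mice the same comparison gave no calls. None of the 38 genes passed the adjusted threshold, where 0.0381% of all genes did so, and voom on fragments recovered from the FPKM values also called none of them. At an unadjusted p under 0.05 there were 34 of the 38 genes, against 10.4% of all genes. All 38 differences were above 0, as were 58.6% over all genes. The median difference was 0.46 over the list and 0.04 over all genes. In 32 of the 38 genes the 3 treated mice lay above the 3 untreated mice, against 13.7% of all genes, and in none did they lie below, against 6.02%.

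The 5 genes with the smallest p are given in full. Gbp2, an interferon-inducible GTPase that attacks the membranes of intracellular pathogens, was at 41.1, 40.3 and 40.0 FPKM untreated and 66.4, 58.6 and 55.1 FPKM treated (0.55 ± 0.087, adjusted p = 0.178, limma). Oas2 had the largest difference, from 9.09, 6.16 and 5.70 FPKM to 17.4, 14.3 and 14.1 FPKM (1.05 ± 0.17, adjusted p = 0.197, limma), a ratio of mean FPKM of 2.19. Both genes separated the groups completely.

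Zbp1, a sensor of Z-form nucleic acids that can start necroptosis, was at 48.9, 39.7 and 41.5 FPKM untreated and 67.4, 62.8 and 62.9 FPKM treated (0.56 ± 0.096, adjusted p = 0.233, limma). Oas3 was at 14.5, 12.6 and 13.6 FPKM untreated and 25.4, 20.4 and 19.9 FPKM treated (0.65 ± 0.11, adjusted p = 0.233, limma). Stat2 was at 24.3, 18.5 and 22.6 FPKM untreated and 33.0, 32.7 and 32.1 FPKM treated (0.57 ± 0.10, adjusted p = 0.287, limma). Again no treated value fell in the untreated range.

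By role, all 5 sensors had differences between 0.40 and 0.56, all 6 modifiers between 0.37 and 0.52, and the 5 IFIT genes between 0.52 and 0.86, the highest being Ifit1bl1. The smallest differences of the list were those of Ifi35 (0.04), Isg20 (0.09), Bst2 (0.17) and Ifi44 (0.21). The Ifi35 difference was below 0 under 3 other scalings, which were quantile normalization, removal of immunoglobulin genes and centring each library on its median log ratio. The 6 genes whose groups overlapped were these 4 with Samd9l and Ifit2, and in the latter pair untreated mouse 1 stood far above untreated mice 2 and 3, at 59.6 against 30.5 and 39 FPKM for Samd9l and 22.4 against 14.7 and 14.2 FPKM for Ifit2.

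The result in SLE123 depended on how the spread was estimated. When all 12 mice entered 1 fit and shared its spread, 8 of the 38 genes rose, with adjusted p between 0.0142 and 0.0330, as did 0.267% of all genes. These were Gbp2, Ifit1, Ifit3b, Irf7, Oas2, Oas3, Stat2 and Zbp1. Leaving out any 1 of the 6 mice gave a count of 0 again, with 28 to 34 of the genes at an unadjusted p under 0.05. Of all 13115 genes, 649 (without treated mouse 1) to 3185 (without untreated mouse 1) were at that level in these fits.

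Markers of other cells in SLE123 were mostly lower in value with treatment, and none of the 5 B cell, 5 plasma cell and 5 myeloid markers tested passed. The B cell markers summed to 57.0 to 216 FPKM untreated and 32.9 to 52.8 FPKM treated, the plasma cell markers to 1799 to 4581 and 945 to 1730 FPKM, and the myeloid markers to 39.2 to 88.2 and 20.3 to 47.5 FPKM. The plasmacytoid dendritic cell markers summed to 126.1 to 177.4 FPKM untreated and 165.6 to 169.6 FPKM treated. Of the 4 tested, 3 had differences above 0 and none passed. Siglech, which was not tested, was at 0.105, 0.209 and 0.276 FPKM untreated and 0.0516, 0.208 and 0.0711 FPKM treated. The CD8+ T and NK cell markers summed to 20.1 to 23.6 FPKM untreated and 31.5 to 36.3 FPKM treated. Conventional dendritic cell markers summed to 2.44 to 5.37 and 1.97 to 2.26 FPKM, and erythroid and platelet markers to 32.6 to 52.1 and 4.63 to 17.3 FPKM, with none of either called. Immunoglobulin genes, which set the scale, were a smaller share in treated mice, and after their removal the median difference of the 38 genes was 0.41 and that of all genes -0.01. The part of the cell mixture in these differences was not tested.

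**Figure D3:**
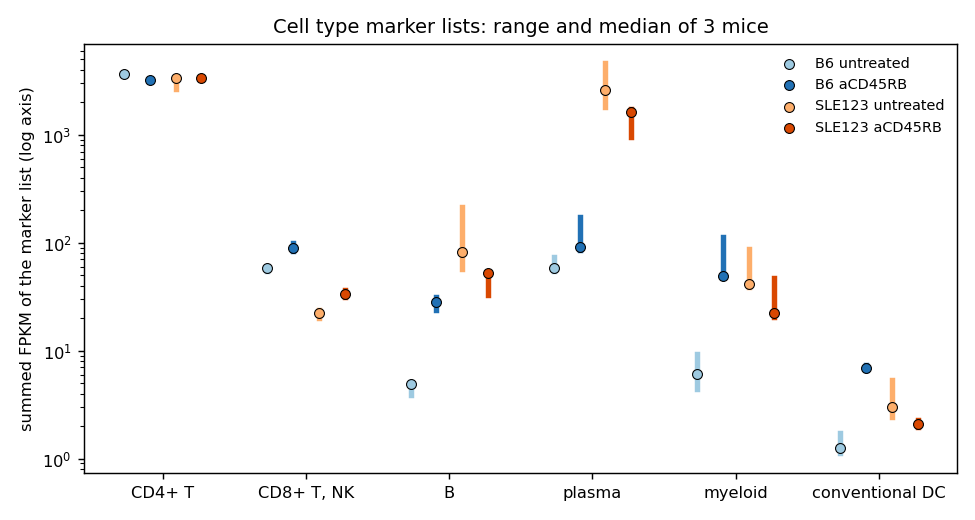
Summed FPKM of 6 cell type marker lists by group on a log axis, with a bar from the lowest to the highest of 3 mice and a point at the median. CD4+ T cell markers have the highest median in every group, with the ranges of CD4+ T and plasma cell markers overlapping in untreated SLE123 mice; B cell and myeloid sums are higher in treated than in untreated B6 mice, and the medians of both are lower in treated than in untreated SLE123 mice.

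The treatment comparisons of the 2 strains share no mice. The treated mice lay above the untreated mice without overlap in both strains in 22 of the 38 genes, against 3.13% of all genes, and both differences were above 0 in 35 of the 38, against 25.5%. The strain-by-treatment interaction asks whether the treatment difference itself differed between the strains. It was above 0 (larger in SLE123) in 28 of the 38 genes, as in 56.2% of all genes, with a median of 0.19 over the list and 0.04 over all genes. None of the 38 passed (limma), where 3.64% of all genes did, and voom also called none. At an unadjusted p under 0.05 there were 13 of the 38, against 25.1% of all genes. A p that misses the threshold does not show that the treatment differences were alike.

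The smallest p belonged to Ddx58, at 47.2, 45 and 46.2 FPKM in untreated B6, 48.1, 44.6 and 44.5 FPKM in treated B6, 39.8, 32.1 and 35.8 FPKM in untreated SLE123, and 51.4, 46.0 and 45 FPKM in treated SLE123 mice (interaction 0.41 ± 0.11, adjusted p = 0.0634, limma). The untreated SLE123 mice thus lay below the other 9. Zbp1 followed with an interaction of 0.39 ± 0.11 (adjusted p = 0.0722, limma), its B6 values being 38.6, 35.7 and 38.0 FPKM untreated and 44.7, 42.7 and 39.6 FPKM treated. Herc6 had an interaction of 0.58 ± 0.16 (adjusted p = 0.0725, limma), with 14.3, 13.3 and 13.9 FPKM in untreated B6, 13.0, 12.3 and 11.4 FPKM in treated B6, 14.3, 9.67 and 12 FPKM in untreated SLE123 and 17.8, 15.5 and 15.0 FPKM in treated SLE123 mice.

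Gbp2 gave 0.42 ± 0.12 (adjusted p = 0.0829, limma) and its B6 values were 27.1, 22.2 and 27.9 FPKM untreated and 28.6, 27.4 and 28.9 FPKM treated. Stat2 gave 0.35 ± 0.12 (adjusted p = 0.120, limma), and its B6 values were 24.5, 21.3 and 23.3 FPKM untreated and 28, 26.7 and 25.8 FPKM treated. Usp18 and Bst2 went the other way in value, at -0.26 and -0.35, and did not pass (adjusted p = 0.399 and 0.319).

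One library decided this count. Without untreated SLE123 mouse 1, which had the highest mean level of its group, 15 of the 38 genes passed, 14 with a larger difference in SLE123 and Bst2 with a smaller one, against 15.1% and 7.14% of all genes. Without untreated B6 mouse 4, 1 gene, Gbp2, passed. Leaving out any other single mouse gave none.

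**Figure D4:**
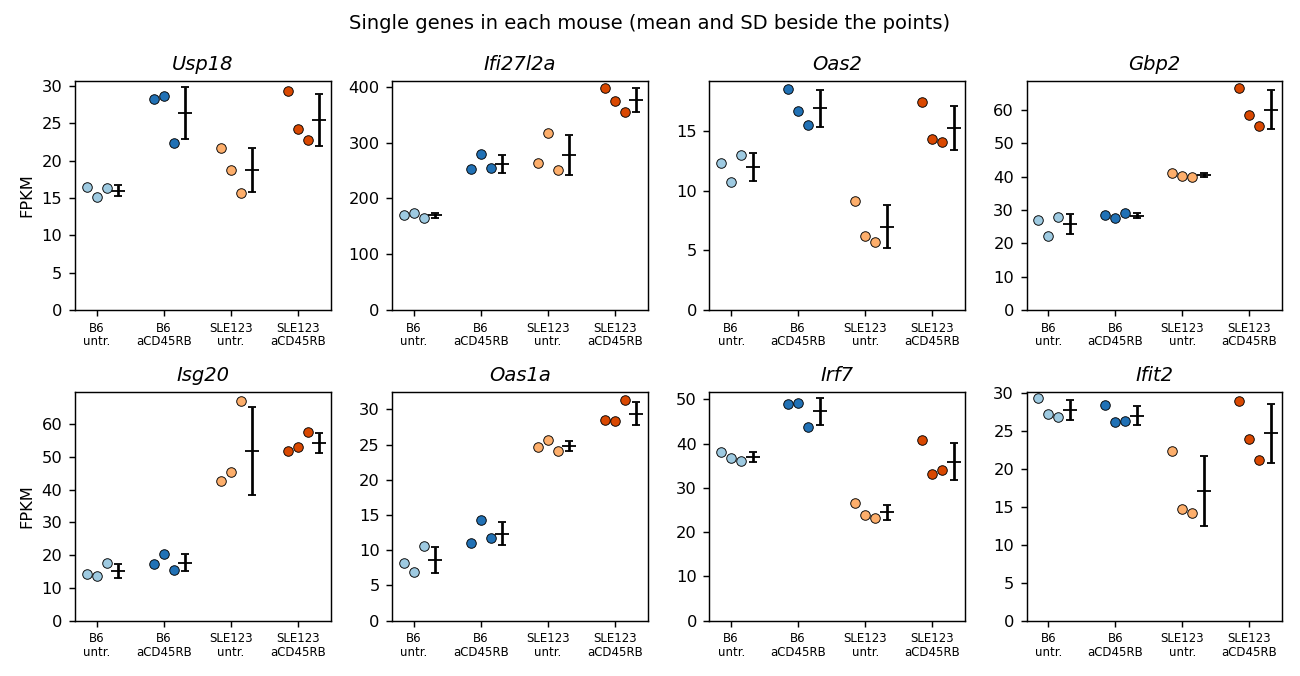
FPKM of 8 of the genes in each of the 12 mice, with the mean and SD of each group of 3 beside the points. Oas2 and Irf7 are lowest in untreated SLE123 mice, at 5.70 to 9.09 and 23.3 to 26.5 FPKM, while Isg20 and Oas1a are higher in all SLE123 than in all B6 mice.

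SLE123 and B6 mice were then compared without treatment, which asks how the lupus-prone strain differed at the start. The strain comparisons use the same 12 mice as the treatment comparisons and are not independent of them. Among the 38 genes, 16 were higher in SLE123 and 4 lower (limma, adjusted p under 0.05), against 22.8% and 20.1% of all genes. The median difference was 0.23 over the list and -0.03 over all genes. In 18 genes all SLE123 mice lay above all B6 mice and in 4 below, against 29.1% and 29.5% of all genes. The shares higher and lower depended on the scaling. With TPM, 7 genes were higher and 11 lower, against 14.6% and 45.6% of all genes, and all genes then had a median of -0.38 and the listed genes one of -0.09. The median of the list minus that of all genes lay between 0.25 and 0.31 under the 5 scalings tried.

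The largest difference was that of Isg20, an exonuclease that degrades single-stranded RNA, at 14.4, 13.5 and 17.7 FPKM in B6 and 42.8, 45.3 and 67.2 FPKM in SLE123 mice (1.68 ± 0.18, adjusted p = 0.000443, limma). The ratio of mean FPKM was 3.40, and mouse 3 of SLE123, also the mouse with most immunoglobulin, was highest. Oas1a was at 8.12, 6.95 and 10.6 FPKM in B6 and 24.7, 25.6 and 24.1 FPKM in SLE123 mice (1.45 ± 0.14, adjusted p = 0.000247, limma). Its neighbour Oas1g was between 0 and 0.0627 FPKM in B6 and between 0.135 and 0.275 FPKM in SLE123 mice, near the counting floor and not tested.

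Bst2 was at 51.9, 43.9 and 52.8 FPKM in B6 and 96.6, 150.3 and 129.7 FPKM in SLE123 mice (1.31 ± 0.16, adjusted p = 0.000921, limma). Mx1, a gene of the MX GTPase family, was at 2.56, 3.01 and 3.67 FPKM in B6 and 8.51, 4.74 and 8.18 FPKM in SLE123 mice (0.97 ± 0.21, adjusted p = 0.00917, limma). Ifi44, a GTP-binding protein gene, was at 0.656, 0.843 and 1.01 FPKM in B6 and 2.61, 1.63 and 2.27 FPKM in SLE123 mice (0.78 ± 0.15, adjusted p = 0.00578, limma). In each of these no SLE123 value fell in the B6 range.

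Oasl2, an OAS-like gene, was at 6.01, 4.41 and 4.91 FPKM in B6 and 11.7, 8.65 and 9.53 FPKM in SLE123 mice (0.84 ± 0.14, adjusted p = 0.00325, limma). Ifi27l2a was at 264, 318 and 250.1 FPKM in SLE123 mice against at most 174 FPKM in B6 (0.70 ± 0.11, adjusted p = 0.00264, limma), a difference that was 0.32 with TPM and 0.29 with quantile normalization and then did not pass. The other genes higher in SLE123 were Rsad2 (0.68), Isg15 (0.64), Gbp2 (0.64), Eif2ak2 (0.48), Ifit3b (0.47), Ifit3 (0.45), Cmpk2 (0.42), Oas3 (0.40) and Dhx58 (0.34), of which Dhx58 turned below 0 with TPM. With TPM only Rsad2 of these passed. Cmpk2 and Dhx58 did not pass without any 1 of the B6 mice or without SLE123 mouse 3, nor Dhx58 without SLE123 mouse 1. Oas3 was lost without B6 mouse 3 or 4, Ifit3 without B6 mouse 4 or 5, Ifit3b without B6 mouse 3, and Eif2ak2 without B6 mouse 4, B6 mouse 5 or SLE123 mouse 3. Eif2ak2 encodes PKR, the kinase that halts translation on double-stranded RNA, and Isg15 the ubiquitin-like modifier.

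The 4 genes lower in SLE123 were Oas2, Ifit2, Irf7 and Ddx58. Oas2 was at 9.09, 6.16 and 5.70 FPKM in SLE123 against 12.3, 10.7 and 13.0 FPKM in B6 mice (-0.72 ± 0.16, adjusted p = 0.0110, limma). Irf7 was at 26.5, 23.8 and 23.3 FPKM against 38.1, 36.7 and 36.1 FPKM (-0.57 ± 0.078, adjusted p = 0.00126, limma). The OAS family was thus divided, with Oas1a, Oasl2 and Oas3 higher and Oas2 lower, although Oas2 and Oas3 are neighbours on chromosome 5, and so was the IFIT family, with Ifit3 and Ifit3b higher and Ifit2 lower. All 4 were below 0 under the 5 scalings. Without untreated SLE123 mouse 1, the mouse with the highest mean level of its group, 15 genes were higher and 8 lower, against 24.4% and 24.9% of all genes. Isg20, Oas1a, Bst2, Mx1, Oasl2, Ifi44, Ifi27l2a, Irf7 and Oas2 passed without any 1 of the 6 mice, while Ifit2 did not pass without B6 mouse 3 and Ddx58 did not pass without any 1 of the B6 mice.

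**Figure D5:**
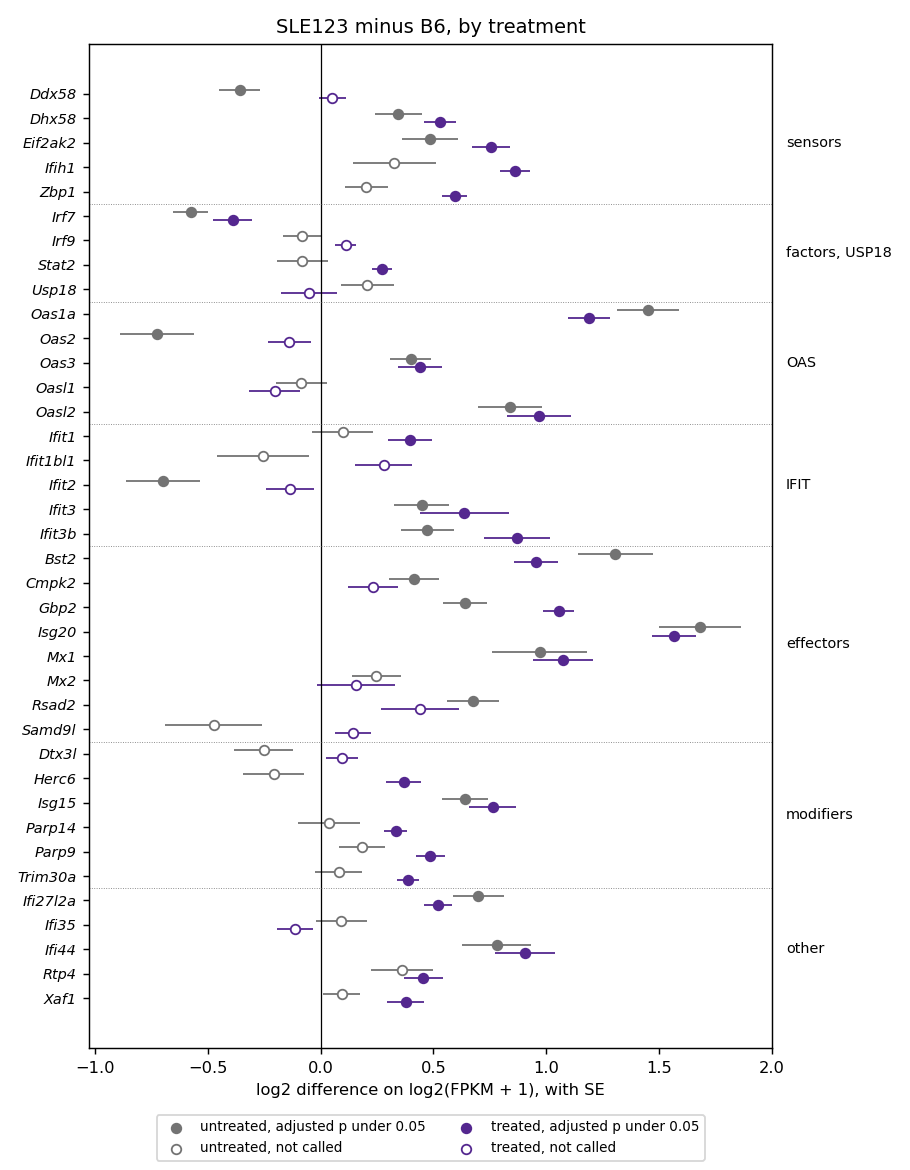
SLE123 minus B6 in untreated (grey) and treated (purple) mice for the 38 tested genes, grouped by role, on the log2(FPKM + 1) scale with SE from limma; filled points passed the adjusted threshold of 0.05. Isg20 and Oas1a lie farthest to the right in both, and Irf7 is the filled point below 0 in both.

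The strains were also compared after treatment, where 6836 of all 13115 genes were called, against 5621 without treatment. A higher count in the list is thus not particular to it. Among the 38 genes, 24 were higher in SLE123 and 1, Irf7, lower, against 29.6% and 22.5% of all genes. The median difference was 0.42 over the list and 0.03 over all genes, and in 25 genes all SLE123 mice lay above all B6 mice and in 1 below, against 34.7% and 27.1% of all genes. With TPM the counts were 15 and 2, against 18.6% and 34.2% of all genes, with a median of -0.14 over all genes. Of the 25 calls, that of Ifit3 was lost without B6 mouse 5, SLE123 mouse 1 or SLE123 mouse 2, and no other call was lost without any 1 mouse.

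Isg20 was at 17.4, 20.5 and 15.4 FPKM in treated B6 and 51.7, 53.2 and 57.5 FPKM in treated SLE123 mice (1.57 ± 0.099, adjusted p = 6.03e-05, limma). Oas1a was at 11, 14.3 and 11.8 FPKM against 28.5, 28.3 and 31.3 FPKM (1.19 ± 0.093, adjusted p = 0.000122, limma), and Mx1 at 5.64, 5.59 and 3.72 FPKM against 11.6, 11.5 and 11.3 FPKM (1.08 ± 0.13, adjusted p = 0.000713, limma). Gbp2 was at 28.6, 27.4 and 28.9 FPKM against 66.4, 58.6 and 55.1 FPKM (1.05 ± 0.070, adjusted p = 6.92e-05, limma). The strains did not overlap in any of the 4.

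Oasl2 was at 8.10, 7.32 and 5.27 FPKM in treated B6 and 15.7, 13.5 and 13.6 FPKM in treated SLE123 mice (0.97 ± 0.14, adjusted p = 0.00139, limma). Bst2 was at 71.8, 82.4 and 61.2 FPKM against 143, 138 and 136 FPKM (0.95 ± 0.099, adjusted p = 0.000351, limma). Ifit3b was at 4.61, 4.0 and 3.51 FPKM against 10.3, 7.40 and 7.09 FPKM (0.87 ± 0.15, adjusted p = 0.00264, limma). The low-level gene Ifi44 was at 0.816, 0.947 and 1.08 FPKM against 3.27, 2.66 and 2.09 FPKM (0.91 ± 0.13, adjusted p = 0.00145, limma), and again no values overlapped.

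Of the sensors, Ifih1 (0.86), Eif2ak2 (0.75), Zbp1 (0.59) and Dhx58 (0.53) were higher in treated SLE123 mice and Ddx58 did not pass (0.05). Of the modifiers, Isg15 (0.76), Parp9 (0.49), Trim30a (0.39), Herc6 (0.37) and Parp14 (0.33) were higher and Dtx3l did not pass (0.10). Ifit3 (0.64), Ifit1 (0.40), Oas3 (0.44), Stat2 (0.27), Ifi27l2a (0.52), Rtp4 (0.46) and Xaf1 (0.38) were higher too. With TPM, Trim30a, Herc6, Parp14, Ifit3, Ifit1, Oas3, Stat2, Rtp4 and Xaf1 did not pass. Usp18 was at similar values, 22.4 to 28.7 FPKM in treated B6 and 22.7 to 29.3 FPKM in treated SLE123 mice (-0.05, adjusted p = 0.752). Irf7 was at 40.7, 33.1 and 34.0 FPKM in SLE123 against 49.0, 49.1 and 43.7 FPKM in B6 mice (-0.39 ± 0.087, adjusted p = 0.00897, limma).

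In these strain comparisons too, other cells differed. Plasma cell markers summed to at most 174 FPKM in B6 and at least 945 FPKM in SLE123 mice, and all 5 were higher in SLE123 with and without treatment. Without treatment all 5 tested B cell markers were higher in SLE123, while with treatment 2 were higher and 2 lower. Of 5 tested CD8+ T and NK cell markers, 3 were lower in SLE123 without treatment and all 5 with it. Of 5 tested myeloid markers, 4 were higher without treatment and 3 lower with it. For conventional dendritic cell markers (4 tested) these counts were 1 and 2, and for erythroid and platelet markers (6 tested) 5 and 2. All 5 liver transcripts tested were lower in untreated SLE123 mice. Ddx58 and Isg15 lie on chromosome 4 and Isg20, Irf7 and Trim30a on chromosome 7, and whether any lies inside donor DNA of the congenic strain was not tested. The part of cell mixture and of donor alleles in the strain differences was not tested.

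The rest of the interferon pathway was read from lists of other genes. Of 21 interferon ligand genes, 20 were under 0.25 FPKM in every mouse, and Ifnb1 was listed at 0 in all 12. A listed 0 can also be a failed estimate, as Trex1, a nuclease gene that most cells express, was listed at 0 in all 12 mice. The exception was Ifng, at 9.35, 10.9 and 8.91 FPKM in untreated B6, 12.3, 13.3 and 13.7 FPKM in treated B6, 19.9, 25.3 and 26.6 FPKM in untreated SLE123 and 23.1, 23.3 and 21.5 FPKM in treated SLE123 mice. Ifng rose with treatment in B6 (0.40) and was higher in SLE123 than in B6 without (1.21) and with (0.74) treatment, and the SLE123 treatment difference of -0.07 did not pass.

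Among the receptor, kinase and STAT genes outside the list, 10 were tested. The most abundant were Jak1, at a mean of 203 FPKM, and Ifngr1, at 63.9 FPKM. With treatment Il10rb rose in B6 (0.26), where 8.74% of all genes rose, and none was called in SLE123. Without treatment 1 was higher and 4 were lower in SLE123 mice, against 22.8% and 20.1% of all genes. The lower genes were Ifngr2 (-1.10), Jak1 (-0.69), Ifnar1 (-0.58) and Ifngr1 (-0.34). With treatment 5 were higher and 4 lower, against 29.6% and 22.5% of all genes. Among them were Ifngr2 (-1.08), Ifngr1 (-0.64) and Stat3 (0.43).

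Of 13 tested genes that lead to interferon production, 5 rose with treatment in B6, against 8.74% of all genes. The largest differences were those of Irf5 (1.20), Irf8 (0.88), Ticam1 (0.33) and Trim25 (0.24). None was called in SLE123, where 0.0381% of all genes were. Irf5 and Irf8 are abundant in B cells and myeloid cells. Both were also higher in untreated SLE123 mice (2.0 and 1.36), and both had an interaction below 0 that passed (-1.60 and -1.32). Of 10 inhibitors of interferon signalling, none was called for treatment in either strain. Without treatment Ptpn11 (1.5), Socs1 (0.68) and Nlrx1 (0.56) were higher and Nlrc3 (-0.78) lower in SLE123, against 22.8% and 20.1% of all genes. With treatment 5 were higher and 3 lower, against 29.6% and 22.5% of all genes.

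Another 39 interferon-stimulated genes outside the list were tested. In B6 8 rose and none fell with treatment, against 8.74% and 6.12% of all genes. The rise was led by Ifitm3 (2.03), Ube2l6 (0.90), Ms4a4c (0.84) and Epsti1 (0.66), with a median of 0.11 over these 39. In SLE123 none passed, where 0.0381% of all genes did. There 36 were above 0, as were 58.6% of all genes, and the median was 0.28, against 0.04 over all genes. Without treatment 12 were higher and 9 lower in SLE123, against 22.8% and 20.1% of all genes. The median was -0.17 over these 39 and -0.03 over all genes, and 22 of the 39 were below 0. The largest differences were those of Ube2l6 (2.71), Ifitm3 (2.28), Ly6a (1.84) and Tor3a (0.93), and the lowest those of Slfn5 (-0.84) and Ms4a6b (-0.74). With treatment 17 were higher and 6 lower, against 29.6% and 22.5% of all genes, with a median of 0.13. Of these genes, 4 passed for the interaction, against 3.64% of all genes. Uba7 (0.43) and Parp10 (0.30) were above 0, and Ifitm3 (-1.90) and Ube2l6 (-0.89) below.

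The interferon-inducible GTPases are strongly induced by IFN-γ. Of 12 tested outside the list, 4 rose with treatment in B6, against 8.74% of all genes. These were Igtp (0.44), Irgm2 (0.37), Gbp3 (0.33) and Gvin1 (0.33). In SLE123 all 12 were above 0, as were 58.6% of all genes, and none passed. Their median was 0.48, against 0.04 over all genes. Without treatment 6 were higher in SLE123, against 22.8% of all genes, led by Gbp3 (1.51) and Iigp1 (1.38). With treatment all 12 were, against 29.6% of all genes, led by Iigp1 (1.63) and Gbp3 (1.32). Gbp4 passed for the interaction (0.76), as did 3.64% of all genes. Its treatment difference was -0.07 in B6 and 0.69 in SLE123.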

How the data were processed

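Poly-A RNA libraries of CD4+ T cells from 12 mice were sequenced, and the authors deposited FPKM per gene for every mouse. The submitters' processing notes name CASAVA 1.8, STAR and mm10; strand handling is not given in the sources used here. Every value of the 23230 genes above 0 was a whole number of fragments within 0.01, so depth could be recovered. Genes averaging 0.5 FPKM or more were tested on log2(FPKM + 1) with limma 3.58.1 in R 4.3.3 (eBayes with trend), each comparison fitted on its own groups, with Benjamini-Hochberg adjustment over all tested genes and a threshold of 0.05; statistics were tested on simulated data. Same-numbered mice did not deviate together in B6, which had 2 such pairs. In every comparison, 2 or 3 pairs are too few to decide whether numbers mark pairs. Mice were not paired in the main fits, and with a replicate block no gene passed in B6. The members and lists were chosen with earlier results of these data known. By rule, full values are given for up to 8 called members with the largest differences (the 5 smallest p where fewer than 3 were called) and up to 4 called genes of each other list; further genes were chosen after their values were seen. Promoters came from RefSeq, and gene positions from GENCODE M21. Alternatives covered the pseudocount, filter, scaling, variance model, replicate block and leaving out each mouse. Counting floors cover counting error only. Values of some single genes are not reported here.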

Additional observations from a re-analysis of the deposited data

How the results depend on the processing

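Each result was recomputed with another pseudocount, filter, scaling or variance model and without each mouse in turn. The count of listed genes called for treatment in B6 (14) was the least stable: 5 with no filter, 23 by voom, 8 with all 12 mice in 1 fit, and 5 to 17 without 1 mouse. In SLE123 it was 8 with all 12 mice in 1 fit and 0 otherwise. The interaction count was 0 to 15 without 1 mouse. The untreated strain count was 14 to 23 and the treated one 24 to 27 without 1 mouse. For the mean of the 39 genes, rescaling to TPM gave 0.67 for treatment in SLE123, -0.0609 for the untreated strains (reversed), 0.30 for the treated strains and 0.36 for the interaction. Rescaling without immunoglobulin genes gave 0.38 for the untreated strains. The ISRE core on the strand of transcription alone was in 24.1% of the genes with a promoter. The cause of these shifts was not tested.

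Replicate numbers are shared between some groups. Same-numbered mice correlated at -0.14 and -0.0936 in B6, -0.161 to 0.266 in SLE123 and 0.0647 and 0.143 between treated strains. The median of same-numbered pairs was below that of other pairs in B6 (-0.117 against 0.0449). It was above it in SLE123 (0.137 against -0.0979) and between treated strains (0.104 against -0.0605). Not every mouse correlated best with its own number, and 2 or 3 pairs cannot decide whether the numbers mark pairs or a shared batch. With a replicate block the counts were 0 for treatment in B6, 0 in SLE123, 20 between treated strains and 0 for the interaction. In that B6 fit no gene of the whole table passed. At an unadjusted p under 0.05 it had 15 of the 38, against 2466 of all 13115 genes. The untreated strains share 1 number, so no block could be fitted there. With 3 mice a group and 13562933 to 23641603 fragments, genes near the counting floor, such as Oas1g, could not be compared.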
